A study of Drosophila melanogaster with 2 samples.

Results

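The proteasome subunit genes of Drosophila melanogaster were examined for chromatin signal of the CG11398 protein in embryos. All genes of the Ensembl release 115 annotation (dm6 build) were taken whose symbol begins with Prosalpha or Prosbeta, or with Rpn or Rpt and a digit, which gave 48 of 18164 genes on the main chromosome arms. The members comprised 7 alpha and 7 beta genes of the core particle, 10 genes of the base, 8 genes of the lid and 16 paralogues marked by an R or T after the subunit number. These are called testis paralogues here, because many such copies are known from the fly testis, but their expression was not measured in these data.

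The data came from chromatin immunoprecipitation and sequencing (ChIP-seq) with an antibody to GFP, on whole embryos of a transgenic line, strain CG11398-GFP, that expresses CG11398-eGFP, with the tag at the C terminus. There was 1 group, aged 0 to 24 h and of pooled male and female embryos, with 2 biological replicates that the labels number 1 and 3. All cell types and embryonic ages were thus mixed, and a single line stands for the protein. Each replicate, and both pooled, had a relaxed list of 30000 regions in which background is kept, and 2712 thresholded peaks were called by the authors from both replicates. The signal is the score that the authors' peak caller gave each region, and read depth is unknown. Neither a control track nor expression was analysed here, so whether open promoters give signal without binding was not tested. All counts below are descriptions, without a test.

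The proteasome degrades proteins tagged with ubiquitin. Its core particle is a barrel of alpha rings, which gate the entry, around beta rings, which hold the proteolytic sites. The regulatory particle consists of a base, whose Rpt subunits are ATPases that unfold substrates, and a lid, which removes ubiquitin chains. In flies, as in other animals, the subunit genes are active in nearly all cells, and Cnc, a relative of the mammalian Nrf factors, activates them under stress.

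Peaks at proteasome promoters lay mostly at lid genes. A thresholded summit within 500 bp of an annotated transcription start site (TSS) was found at 6 of 48 members (12.5%), while the share among all protein-coding genes was 12.6% (1752 of 13945). Over all 18164 genes it was 10.6%. The family as a whole was therefore near the background, and so it was among members with a relaxed region, where 6 of 29 (20.7%) had a peak, compared with 23.9% of protein-coding and 22.2% of all genes with one. By subcomplex, the peak was present at 4 of 8 lid genes, 1 of 10 base genes, 1 of 14 core genes and 0 of 16 testis paralogues. The lid genes were Rpn5, Rpn3, Rpn6 and Rpn11, the base gene was Rpt5 and the core gene was Prosbeta1. At Rpn5, Rpn6 and Prosbeta1 the summit was nearer to a neighbouring gene than to the member.

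**Figure D1:**
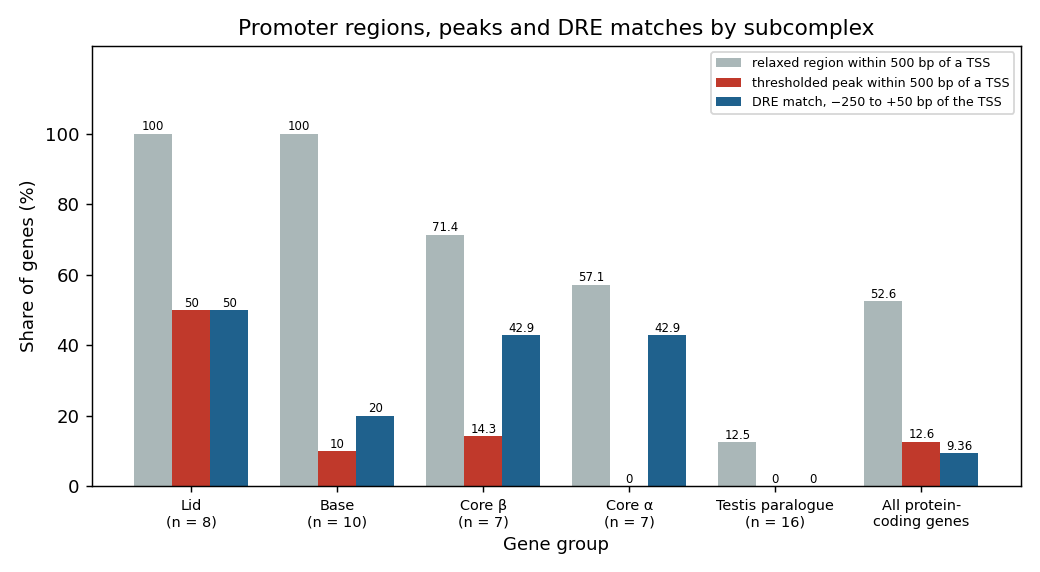
Bars give the share of genes (%) with a pooled relaxed region, a thresholded peak or a match to the DNA replication-related element (DRE, TATCGATA) at the promoter, for each subcomplex and for all protein-coding genes. The lid had peaks at 50% of its promoters and the testis paralogues at 0%, with 12.6% in all protein-coding genes.

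The DNA at those peaks is shown first, since the results turn on these promoters. The sequence within 50 bp of the summit is given on the strand of the member, from the RefSeq Release 6 genome (dm6), without exon bases, and capitals mark any whole match to 8 motifs searched. It is given for the peaks of Rpn5, Rpt5, Rpn3 and Rpn11, and for Rpn12 and Rpn2, which ranked among the top regions in replicate 1 only.
Rpn5 (chr3R:5789219-5789319, + strand): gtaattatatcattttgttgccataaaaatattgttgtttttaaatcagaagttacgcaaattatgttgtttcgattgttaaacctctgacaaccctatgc
Rpt5 (chr3R:23752835-23752875, + strand): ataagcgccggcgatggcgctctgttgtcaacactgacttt
Rpn3 (chr2L:19051727-19051789, + strand): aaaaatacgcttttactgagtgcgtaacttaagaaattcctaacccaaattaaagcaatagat
Rpn11 (chr2L:5059839-5059939, - strand): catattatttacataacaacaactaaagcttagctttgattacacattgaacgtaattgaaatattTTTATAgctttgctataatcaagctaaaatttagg
Rpn12 (chr3L:16582870-16582970, + strand): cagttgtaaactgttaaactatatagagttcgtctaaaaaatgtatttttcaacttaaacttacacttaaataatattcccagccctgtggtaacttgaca
Rpn2 (chr3R:29153395-29153495, + strand): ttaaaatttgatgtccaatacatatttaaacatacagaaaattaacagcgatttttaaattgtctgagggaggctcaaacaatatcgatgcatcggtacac

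These windows are rich in A and T apart from that of Rpt5, and the only capitals, in Rpn11, mark a TATA box read on the opposite strand. The Rpt5 stretch begins inside a DRE (TATCGATA) whose first bases were trimmed with the neighbour's exon, so that it is not in capitals here; it is printed whole with the DRE matches. Over the summit and 100 bp on either side, GC content was 28.4% at Rpn3, 31.3% at Rpn5, 31.3% at Rpn6, 32.3% at Rpn11, 37.3% at Prosbeta1 and 43.3% at Rpt5. The median of these 6 was 31.8%, while thresholded peaks at protein-coding promoters had a median of 39.3%. Members with a relaxed region only had a median of 44.3%, near the 45.8% of all relaxed regions that overlapped no thresholded peak.

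Among the lid genes, Rpn5, which encodes a scaffold subunit, carried the strongest proteasome peak (FBgn0028690, region chr3R:5789061-5789476). Its pooled signal was 168, with 82.5 in replicate 1 and 85.7 in replicate 3, and it ranked 621 of 2712. The summit lay 224 bp upstream of the Rpn5 TSS, inside an intron of Hat1, a histone acetyltransferase gene on the opposite strand whose TSS was 115 bp away. The peak was thus nearer to Hat1 than to Rpn5. Within 200 bp of the Rpn5 TSS lay only a weaker relaxed region, with a pooled signal of 56.8, below the lowest thresholded signal of 79.8.

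Rpn3 (FBgn0261396, region chr2L:19051569-19051984), another scaffold subunit of the lid, had a pooled signal of 116, with 67.3 in replicate 1 and 50.2 in replicate 3. Its summit was at -13 bp from the TSS, and l(2)37Bb began on the opposite strand 178 bp from that TSS. At Rpn6 (FBgn0028689, region chr2R:14752257-14752672), which encodes a subunit that braces the lid against the core, the signal was 95.4, with 59.1 in replicate 1 and 46.9 in replicate 3. Here too a neighbour was nearer: the summit was at -194 bp from the nearest TSS of Rpn6, in an intron of a longer Rpn6 transcript, and at -56 bp from the TSS of ave, a gene of receptor tyrosine kinase signalling.

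Rpn11 (FBgn0028694, region chr2L:5059681-5060096) encodes the deubiquitinase of the lid. Its signal was 86.2, the lowest of the 6, with 27.4 in replicate 1 and 51.8 in replicate 3, and the summit at -99 bp lay between genes. No other gene had a TSS within 500 bp, so this was the single peak of the 6 at a promoter that the member did not share. The replicates differed here, with a log2 ratio of replicate 1 to replicate 3 of -0.92, while the 10th to 90th percentile over all thresholded peaks was -0.42 to 0.85.

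The remaining lid genes had weak regions or regions just under the threshold. Rpn12 (FBgn0028693, region chr3L:16582712-16583127), a small lid subunit, had a pooled signal of 77.7, against a lowest thresholded signal of 79.8, with 53.3 in replicate 1 and 23.4 in replicate 3 and a summit at -108 bp between genes. Rpn9 had 40.9, Rpn8 (the partner of Rpn11 in the deubiquitinating module) had 25.1 and Rpn7 had 23.7. The last pair stood close to 22.7, the lowest signal in the pooled relaxed list. Lid signals thus spanned the range from near the bottom of the relaxed list to well inside the peaks.

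In the base, Rpt5 (FBgn0028684, region chr3R:23752662-23753077), which encodes an ATPase of the unfolding ring, was the only gene with a peak. Its pooled signal was 117, with 45.0 in replicate 1 and 70.5 in replicate 3, a log2 ratio of -0.65 that also lay outside the 10th to 90th percentile of thresholded peaks. The summit was at -6 bp from the Rpt5 TSS and at -36 bp from the TSS of RanBP3, which encodes a Ran-binding protein and starts on the opposite strand 42 bp away. The peak stood between 2 start sites that close, so that it cannot be assigned to either gene.

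The other ATPase genes had a relaxed region only, with signals of 67.4 at Rpt1, 38.8 at Rpt6, 35.9 at Rpt3, 33.7 at Rpt4 and 31.3 at Rpt2. At Rpt1 (region chr2R:7653516-7653931) the replicates gave 40.8 in replicate 1 and 25.4 in replicate 3, 230 bp downstream of the TSS in its coding sequence. Most ATPase genes were thus near the median of the relaxed list, 33.6. Rpn13 (region chr2R:13960479-13960894), which encodes a ubiquitin receptor, missed the threshold by 30 rank places, with 79.3 in the pool, 41.6 in replicate 1 and 35.1 in replicate 3. Its summit was at -283 bp from Rpn13 and 12 bp inside CtsL1, a cathepsin gene. All 10 base genes had a relaxed region, with a median over the base of 45.0, and Rpn13 was the strongest of them after Rpt5.

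The 2 large scaffold subunits of the base differed between replicates in the same direction. Rpn2 (region chr3R:29153237-29153652, summit at -79 bp and at -179 bp from Slbp, a gene for histone mRNA binding) had 66.8 in replicate 1 and 18.0 in replicate 3, a log2 ratio of 1.90, and a pooled signal of 68.5. Rpn1 had 37.7 in replicate 1 and 14.0 in replicate 3, a log2 ratio of 1.43. Rpn10, another ubiquitin receptor, ran the other way with 15.1 in replicate 1 and 30.5 in replicate 3. Among relaxed regions that overlapped no thresholded peak, the 10th to 90th percentile of the ratio was -0.47 to 0.96. Outside it lay 5 of 17 members with only a relaxed region, found in both replicates. By definition the lowest 10% and highest 10% of all such regions lie outside too, so the count is not read as a trait of the members.

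**Figure D2:**
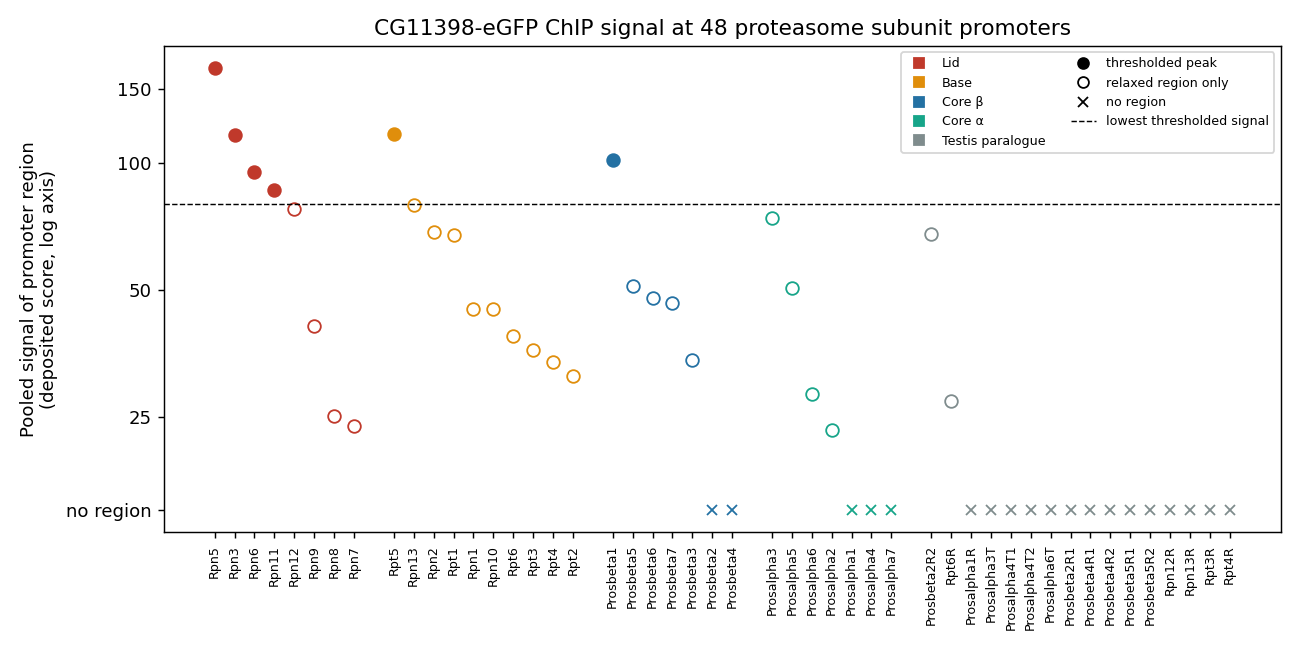
Points give the pooled signal of the promoter region of each member (deposited score, log axis), by subcomplex. Filled circles are thresholded peaks, open circles relaxed regions and crosses members with no region; the dashed line is the lowest thresholded signal, 79.8, and Rpn13 at 79.3 sits just under it.

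In the core particle, Prosbeta1 (FBgn0010590, region chr2R:16014665-16015080), which encodes the catalytic subunit with caspase-like activity, was the only gene with a peak. Its pooled signal was 102, with 40.8 in replicate 1 and 50.4 in replicate 3. The summit was at -86 bp from Prosbeta1 and at -35 bp from Rrp42, an RNA exosome gene on the opposite strand, whose TSS lay 121 bp from that of Prosbeta1. The neighbour was again the nearer gene.

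The other catalytic subunits did not carry a peak. Prosbeta5, with chymotrypsin-like activity, had a relaxed region of 51.1, with 33.5 in replicate 1 and 24.7 in replicate 3, midway to dgo on the opposite strand (-47 bp from either TSS). Prosbeta2, with trypsin-like activity, had no region. Of the structural beta genes, Prosbeta6 had 47.7, Prosbeta7 46.5 and Prosbeta3 34.1, each with its summit downstream of the TSS in its own coding sequence, and Prosbeta4 had no region.

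No gene of the alpha ring had a thresholded peak. Prosalpha3 (region chr2R:20994716-20995131) was the strongest, with a pooled signal of 73.9, or 35.5 in replicate 1 and 33.6 in replicate 3, at 24 bp inside its 5' UTR. Prosalpha5 had 50.3 in its coding sequence, Prosalpha6 28.3 in an intron of Npc1a, and Prosalpha2 23.3 in the coding sequence of CG5245. Prosalpha1, Prosalpha4 and Prosalpha7 had no region. Of the 5 members outside the testis group without any region, all were thus core genes.

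The testis paralogues stood at the bottom. A pooled relaxed region within 500 bp was present at 2 of 16 (12.5%), against 27 of 32 other members (84.4%) and 52.6% of protein-coding genes. The 16 paralogues correspond by symbol to 12 subunits, of which 8 had a region at their own promoter and none a thresholded peak. For 8 paralogues without a region the counterpart had one, and for 6 neither had one.

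Of the 2 exceptions, Prosbeta2R2 (FBgn0037296, region chr3R:5219403-5219818) had a pooled signal of 67.8, with 34.0 in replicate 1 and 30.4 in replicate 3, higher than its counterpart Prosbeta2, which had no region. Its summit was at -83 bp from Prosbeta2R2 but at -46 bp from CG1116, which starts on the opposite strand 129 bp away. Rpt6R (region chr3R:30583284-30583699) had a weak region of 27.2 in its own coding sequence that overlapped a region of replicate 1 (18.9) and none of replicate 3; Rpt6 had 38.8. The median distance of the testis paralogues to the nearest thresholded summit was 58169.5 bp, compared with 8359.5 bp for the 26 other members without a peak and 16673 bp for protein-coding genes without one. It ranged widely, and Prosbeta2R2 at 2085 bp and Rpt3R at 6142 bp were nearer than the median of the other members.

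Shared promoters were frequent among the proteasome peaks. At 5 of 6 members with a thresholded peak (83.3%), a protein-coding gene on the opposite strand also had a TSS within 500 bp of the summit, compared with 49.1% of all protein-coding genes with a peak. The start sites nearest the summit were 42 to 250 bp apart at these 5. The 250 bp is that of Rpn6, counted from its inner TSS, and ave starts inside the Rpn6 gene. At members with a relaxed region only the same held for 11 of 23 (47.8%), compared with 31.7% of protein-coding genes with a relaxed region only. Another gene was nearer to the summit than the member at Rpn5, Rpn6 and Prosbeta1, 3 of 6 members with a peak (50%), compared with 26.2% of protein-coding genes with a peak. For relaxed regions only it was 7 of 23 members (30.4%), compared with 17.4% of protein-coding genes. When a summit counted only for the gene of the nearest TSS (ties within 50 bp), 3 members kept a peak, namely Rpn3, Rpn11 and Rpt5. Rpt5 is counted by this rule alone, since its summit was also at -36 bp from RanBP3. Prosbeta1 was not kept, with its summit at -86 bp and at -35 bp from Rrp42.

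All 6 thresholded summits were upstream of the member's nearest TSS, as were 78.3% of those of protein-coding genes with a peak. At Rpn6 that TSS is an inner one, and the summit lay downstream of the 5' end of the gene, in an intron. The median offset was -92.5 bp for the 6 members and -99 bp for protein-coding genes with a peak. Summits of members with a relaxed region only were upstream in 56.5% of cases, compared with 53.2% among protein-coding genes with a relaxed region only. The 6 peaks were moderate in strength, with a median signal of 109.0 compared with 118 for protein-coding genes with a peak. Of the 6, 5 were below that median, but Rpt5 (117) and Rpn3 (116) only just. Over all 29 members with a region the median was 47.7, compared with 48.5 for protein-coding genes with a region.

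**Figure D3:**
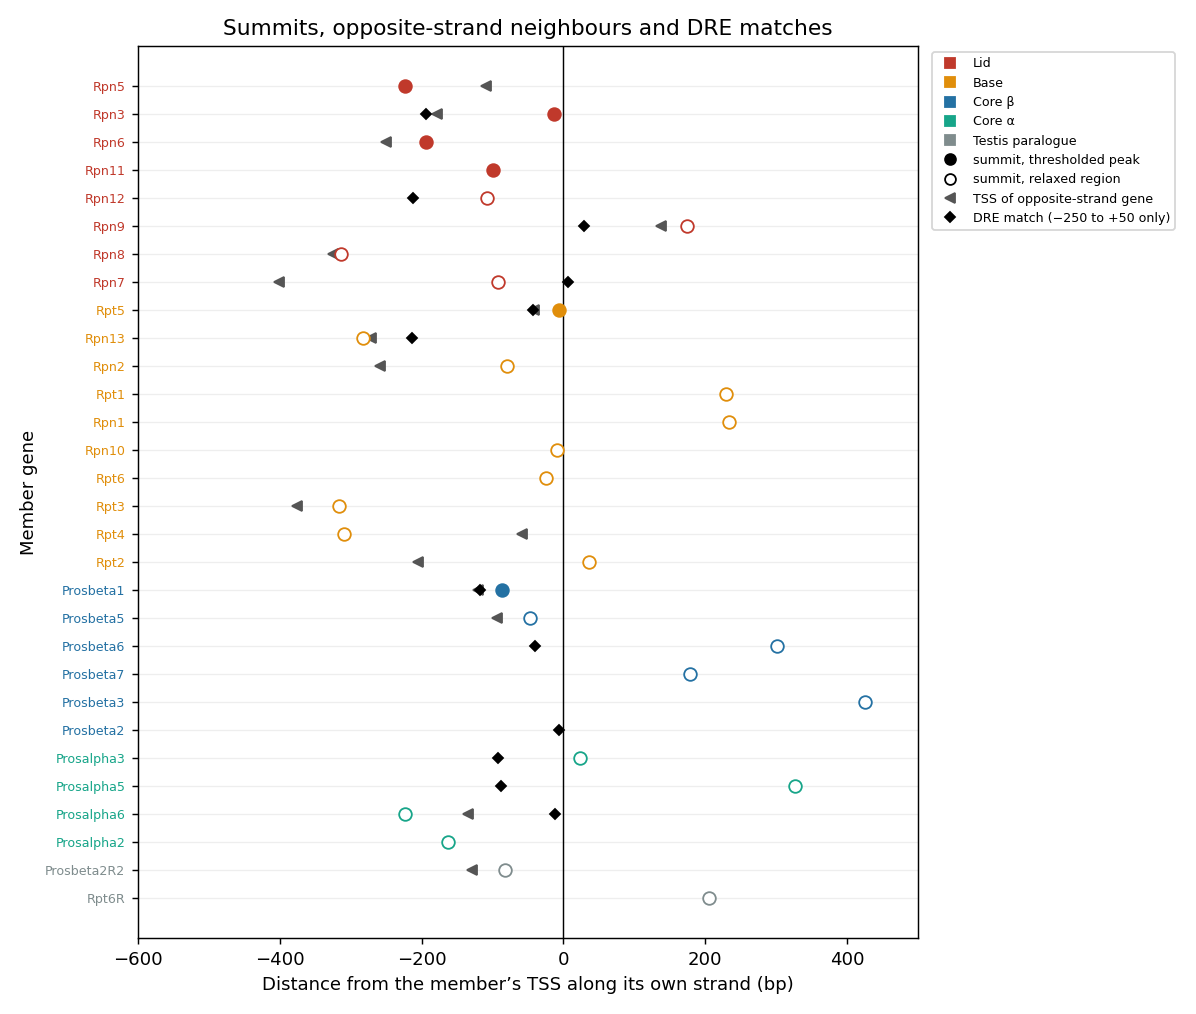
Each row is a member with a region or a DRE match. Circles mark the summit relative to the member's nearest TSS (bp, along its own strand), triangles the TSS of an opposite-strand gene and diamonds a DRE match in the promoter. At Rpt5 and Prosbeta1 the diamond covers the triangle, because the DRE holds the TSS of the neighbour; summits of the 6 peaks (filled) lie between -224 and -6 bp.

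Both replicates held a region at each of the 6 peaks, as they did at all 2712 thresholded peaks, so this is not particular to the members. Which members ranked high depended on the replicate. With the 2712 top regions of replicate 3 alone, the same 6 members had a peak. With those of replicate 1 alone there were 5, of which Rpn3, Rpn5 and Rpn6 were shared with the thresholded list, while Rpn12 and Rpn2 took the place of Rpn11, Rpt5 and Prosbeta1. In replicate 1 those 3 regions ranked 7984, 2789 and 3478 of 30000. In replicate 3 the Rpn12 region ranked 7388 and that of Rpn2 13310. The lid had 4 genes among the top regions of either replicate. The share of all thresholded peaks that stay among the top regions of each replicate is not given here. Whether the exchange of members is usual for peaks of this rank is therefore open. Of the 23 members with a relaxed region only, 20 were overlapped by a region of replicate 1, 20 by one of replicate 3 and 17 by both. Over all relaxed regions outside the thresholded peaks, those shares were 76.6%, 72.7% and 53.5%. These sets are not matched for strength. The 23 member regions had a median signal of 45.0, compared with 33.6 over the whole pooled relaxed list. Whether members recur more often than regions of like signal was not tested.

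**Figure D4:**
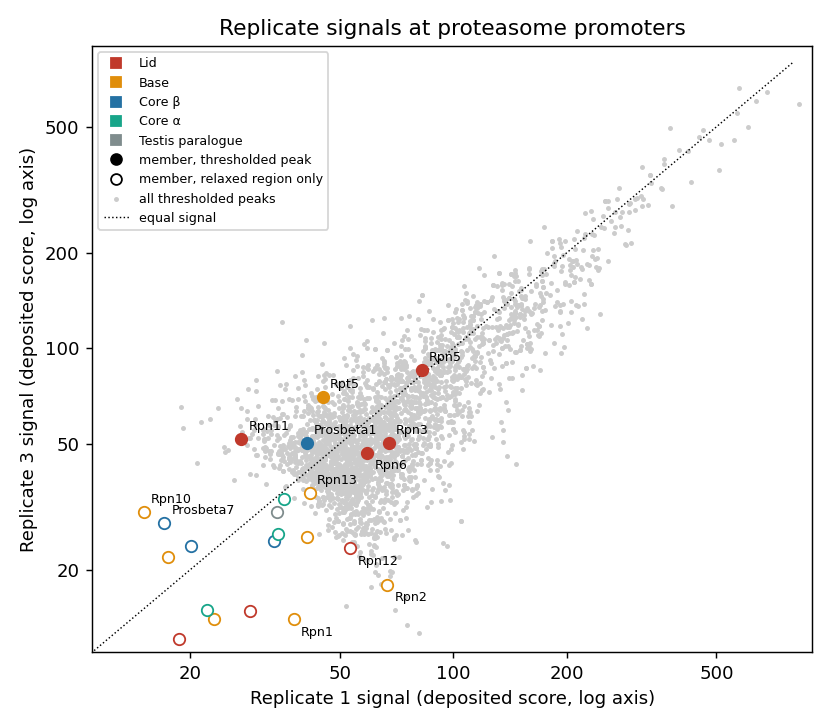
Signal in replicate 3 against replicate 1 (deposited scores, log axes) for members with a region in both, over all thresholded peaks (grey); the dotted line marks equal signal. Rpn5 lies on the line at 82.5 and 85.7, Rpn11 above it, and Rpn2, Rpn12 and Rpn1 below it.

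The DRE, the site bound by the transcription factor Dref and common at promoters of housekeeping and growth genes, was frequent at proteasome promoters. TATCGATA was present between 250 bp before and 50 bp after the annotated 5' end at 12 of 32 members outside the testis group (37.5%) and at 0 of 16 testis paralogues, compared with 9.36% of all protein-coding promoters. By subcomplex the counts were 4 of 8 in the lid, 2 of 10 in the base, 3 of 7 in the alpha ring and 3 of 7 in the beta ring. The matches with 10 bases on each side are printed on the member's strand with the DRE in capitals, for 8 members, to show how different the flanks are.
Rpn3 (chr2L:19051583-19051610, + strand): gttatcggagTATCGATAtcgaaaaggc
Rpt5 (chr3R:23752820-23752847, + strand): tcgctgtcacTATCGATAagcgccggcg
Rpn12 (chr3L:16582802-16582829, + strand): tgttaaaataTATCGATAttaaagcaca
Rpn9 (chr3R:23733419-23733446, - strand): cccggttaaaTATCGATAttctcgcgga
Rpn7 (chr3R:22462034-22462061, - strand): cggtataattTATCGATAattttggggt
Prosbeta6 (chr3L:16610445-16610472, - strand): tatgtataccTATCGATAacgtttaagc
Prosalpha6 (chr2L:10221325-10221352, + strand): ccgaatccctTATCGATAcccgatacac
Prosbeta2 (chr3L:14999931-14999958, + strand): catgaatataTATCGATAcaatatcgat

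The DRE was found at members with and without a peak. It was at 3 of 6 members with a thresholded peak (Rpn3, Rpt5 and Prosbeta1), at 8 of 21 others with a relaxed region outside the testis group, and at 1 of 5 without a region (Prosbeta2). Over all protein-coding genes the shares were 14.4% with a peak, 13.7% with a relaxed region only and 4.30% with no region. Its centre was 36 bp from the summit at Rpt5, 31 bp at Prosbeta1 and 180 bp at Rpn3. At Rpt5 its first base was at -46 bp and the TSS of RanBP3 was 42 bp upstream, so that the 8 letters held the neighbour's start. At Prosbeta1 its first base was at -121 bp, the position of the Rrp42 start. Within 50 bp of the summit the DRE was found at 2 of 6 members with a peak (Rpt5 and Prosbeta1). It was found there at 1 of 23 with a relaxed region only (Rpt3). The shares were 2.10% over all thresholded peaks and 0.728% over the relaxed regions outside them. Those shares cover regions at any distance from a TSS, and only 1280 of the 2712 thresholded peaks were at protein-coding promoters. The member regions were all at promoters, and a share over promoter regions alone is not given here. None of the 4 lid genes with a peak had a DRE within 50 bp of the summit, and Rpn3 alone of them had one in the promoter. For Rpn6 the promoter searched was at the 5' end of the gene and did not reach its summit near the inner TSS. The same held for Rpn8, whose relaxed region had its summit in an intron of the gene, near an inner TSS. Whether the DRE share differs between these groups was not tested.

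The other 7 motifs were each described against their share over all protein-coding promoters. The antioxidant response element TGACNNNGC, the kind of site that Nrf factors bind, was at 5 of 32 members outside the testis group and 1 of 16 testis paralogues, compared with 8.63% of protein-coding promoters, and at none of the 6 with a peak. The core of Ohler motif 1, GGTCACACT, was at 5 of 32 and 0 of 16, compared with 6.05%. The Forkhead core TGTTTAC was at 4 of 32 and 2 of 16, compared with 9.19%, and at none of the 6 members with a peak, in the promoter or within 50 bp of the summit. The TATA box TATAAA was at 13 of 32 and 5 of 16, compared with 45.8%. The heat shock element GAANNTTC was at 1 of 32 and 1 of 16, compared with 9.37%, and the GAGA repeat GAGAGAG at 0 of 32 and 2 of 16, compared with 5.87%. The E-box CACGTG was at 0 of 48, compared with 4.20%. All motifs were searched on both strands, none is contained in another although matches can overlap, and a match describes letters, not occupancy. The Rpn6 promoter counted here is that of the 5' end of the gene, which does not hold its peak summit. That of Rpn8 likewise does not hold the summit of its relaxed region.

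Related genes of the pathway were listed from their known roles. Over all protein-coding genes 52.6% had a region, 12.6% a thresholded peak, and 23.9% of those with a region a peak. Of 9 genes for assembly and regulation, 6 had a region and 3 a thresholded peak. These were Uch-L5, a deubiquitinase of the regulatory particle (133, with 69.6 in replicate 1 and 58.0 in replicate 3), cnc (114, with 62.7 in replicate 1 and 50.5 in replicate 3) and ntc, an F-box gene of sperm differentiation (105, with 42.2 in replicate 1 and 63.2 in replicate 3). The peak of Uch-L5 was also that of Jarid2, at -57 bp from its TSS, and that of ntc was also at -97 bp from CG32264. Pomp, which encodes the chaperone that matures the core, stood just under the threshold with 77.8. Sem1 was listed here and not with the lid, whose genes were chosen by symbol, and had a relaxed region only (42.8). Usp14, REG and maf-S had no region. Ecm29 could not be matched to the annotation.

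Of 12 genes for ubiquitin and its carriers, all had a region, compared with 52.6% of protein-coding genes, and 4 had a thresholded peak, compared with 23.9% of protein-coding genes with a region. These were RpS27A, a fusion of ubiquitin and a ribosomal protein (144), the polyubiquitin genes Ubi-p5E (111) and Ubi-p63E (90.7), and Uba1, the ubiquitin-activating enzyme (92.0, at 492 bp from a TSS). The peak of RpS27A stood midway to Ip259, at -38 bp from either TSS. The COP9 signalosome, a complex built like the lid, had a region at 7 of 9 genes and a peak at 1 of 9, compared with 12.6% of protein-coding genes with a peak. That gene was alien (91.8), with its summit at -164 bp from alien and -62 bp from CG18661. CSN3 followed with 77.6, and CSN1a and CSN7 had no region. The lid's share of 4 in 8 and the signalosome's of 1 in 9 rest on few genes, and their difference was not tested.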

How the data were processed

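ChIP-seq peak lists of 2 replicates of 1 group were used. According to notes the authors deposited, relaxed lists derive from alignments and a control. The thresholded list is their optimal one after testing both replicates for irreproducible discovery. Aligner, peak caller, versions and normalization: not given in the sources used here. Each region carries a signal, a score deposited by the authors, used to rank regions within a list. The authors also deposited a −log10 q-value, which was not used to rank. The thresholded peaks were the same 2712 regions as the top 2712 of the pooled list.

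Only dm6 lists were used, with the Ensembl release 115 annotation and the Release 6 genome. A region belonged to a gene when its summit, from the deposited offset, lay within 500 bp of an annotated TSS, and the strongest was taken. A thresholded summit came first, otherwise a pooled relaxed one. Replicate signal is that of the strongest replicate region overlapping by at least 1 bp. Calculations used Python 3.11.15 and Biopython 1.88, and the assignment of summits was tested on made-up genes. Motif positions count from the annotated 5' end of the gene.

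The members and lists were chosen with earlier results of these data known. CSN2 and Ufd1-like were matched as alien and Ufd1. Rpn10 and Rpn13 were placed with the base. Values are printed in full for members with a thresholded peak, the 6 strongest without one, and testis paralogues with a region. Alternatives were promoter windows of 200 and 1000 bp, each replicate left out (the 2712 top regions of the other), the stronger 50% of peaks, nearest gene only (ties within 50 bp), Rpn10 and Rpn13 with the lid, replicate summits within 100 bp, and protein-coding genes as background.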

Additional observations from a re-analysis of the deposited data

How the results depend on the processing

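With the stronger 50% of thresholded peaks, 3 members had a peak, 2 of them in the lid and 0 in the core, while 12.5% of protein-coding genes with a region had one. With the nearest gene only, 3 members had a peak, again 2 in the lid and 0 in the core. With each replicate left out in turn, the count of members ran from 5 to 6 and that of core genes from 0 to 1, the lid keeping a count of 4 and the base 1; without replicate 3, Prosbeta1, Rpn11 and Rpt5 were lost and Rpn12 and Rpn2 gained. Of protein-coding genes with a region, 25.5% had a peak without replicate 1 and 22.7% without replicate 3. A window of 200 bp gave 5 members, without Rpn5, and 24.7% of protein-coding genes with a region; a window of 1000 bp gave 6 members and 23.8%. The count at testis paralogues was 0 under every alternative run. Members with a relaxed region ran from 21 (200 bp, or nearest gene only) to 32 (1000 bp), against 29. Moving Rpn10 and Rpn13 to the lid left 4 lid genes and 1 base gene with a peak. With replicate summits within 100 bp, 11 of 12 matches of a peak to a replicate were kept. Over all genes with a region 22.2% had a peak, and 23.9% of protein-coding ones. Depth is unknown, so no limit of detection can be given, and groups of 7 to 16 genes make the shares coarse.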

Other observations

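The members lay on 5 chromosome arms, with 8 on 2L, 13 on 2R, 7 on 3L, 14 on 3R and 6 on X. The 6 thresholded peaks were split evenly, with 2 each on 2L, 2R and 3R. None was on 3L or X, where 2 testis paralogues each and the other members had no peak. More than 1 pooled summit within 500 bp of a TSS was found at 7 of the 29 members with a region. For the 26 members outside the testis group that lacked a peak, the nearest thresholded summit was 1938 to 57107 bp away, and for the 16 testis paralogues it was 2085 to 147515 bp away.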
